A study of Homo sapiens with 12 samples.

Results

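The clustered histone genes were followed in U87 cells, an established human glioblastoma line, after delivery of anti-seed peptide nucleic acids. The members are every gene whose deposited name begins with HIST1H, HIST2H, HIST3H or HIST4H, without the names that end in P and digits or in PS. This rule took 63 of the 71 entries of that kind, among 35741 genes in the table. Of the 63 members, 24 had 10 or more counts in 3 or more libraries, and 22 passed the filter on low counts and were tested. The other 41 were not tested, and 36 members stayed under 10 counts in all 12 libraries. A name without a pseudogene suffix can still belong to a pseudogene, and 3 of the tested members, HIST2H2BC, HIST2H2BD and HIST2H2BA, are transcribed unprocessed pseudogenes in GENCODE release 29.

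The study set 3 treatments against untreated cells, with 3 libraries per group and 12 in all. PNA-10b cells received sgPNA-10b, directed at miR-10b, PNA-21 cells received sgPNA-21, directed at miR-21, and PNA-10b+21 cells received both, and control cells were untreated. Peptide nucleic acids are synthetic chains that pair with RNA through bases held on a peptide-like backbone. Each was given as a BNP formulation at 150 nM for 72 h, and PNA-10b+21 cells received 150 nM of both. The labels give the genotype of control cells as WT and describe the treated cells as knockdowns of miR-10b, miR-21 or both. No group given the carrier alone or a control sequence was used here. It is not stated whether the 3 libraries of a group came from separate cultures, so the p-values measure only the spread between these libraries.

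Replication-dependent histone genes encode the linker histone H1 and the core histones H2A, H2B, H3 and H4, and lie in clusters on a few chromosomes. Their transcription is tied to S phase through NPAT at histone locus bodies. Their mRNAs are unusual in that they normally have no introns and no poly(A) tail, and end just after a short stem-loop bound by the stem-loop binding protein SLBP. Some of these genes also give transcripts that read past the stem-loop and are spliced or polyadenylated, most often described in cells that have left the cell cycle. The libraries were prepared with an mRNA kit that captures poly(A) tails, so transcripts that end at the stem-loop are expected to be captured poorly. The total of a histone gene's mRNA in the cell was therefore not measured.

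The stem-loops are shown because they mark where the tail-less form of each mRNA ends. A search of the GENCODE release 29 transcripts (GRCh38) within 200 bases after the stop codon, for a 16-base hairpin with a 6-base stem that begins GG and ends CC, found 1 in 28 members, in 6 different sequences. Members whose annotated transcripts end at the stop codon could not be searched, so no hairpin found does not mean that the gene lacks it. Capitals mark the 4-base loop.

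Stem-loop of 15 members, among them HIST1H2AC and HIST2H2BE: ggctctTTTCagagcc

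Stem-loop of 5 members, among them HIST1H4H and HIST4H4: ggccctTTTCagggcc

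Stem-loop of 5 members, among them HIST1H2BD, HIST1H2BC and HIST1H3G: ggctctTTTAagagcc

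Stem-loop of HIST1H4I: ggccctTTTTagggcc

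Stem-loop of HIST1H3E: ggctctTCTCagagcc

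Stem-loop of HIST1H2AG: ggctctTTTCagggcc

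The first and the third of these differ in the last base of the loop alone, and the H4 genes HIST1H4H, HIST4H4 and HIST1H4I share 1 stem. The 4 protein-coding members that were called in the comparisons below carry 3 of the 6 forms. In HIST1H2AC the stem-loop lies at chr6:26124669-26124684, in HIST1H2BD at chr6:26158587-26158602, in HIST1H4H at chr6:26285131-26285146 on the minus strand, and in HIST1H2BC at chr6:26123472-26123487 on the minus strand.

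The annotated 3′ ends differed between the members that gave enough reads to be tested and those that did not. Among the 19 tested protein-coding members with an annotation, 2 had no annotated base after the stop codon, and the median of the longest annotated stretch after it was 687 bases. Among the 38 such members that were not tested, 23 had none and the median was 0 bases. Of the tested ones, 16 had the hairpin, and in 14 of these 16 an annotated transcript ran on for 100 bases or more past it, 9 of them with a polyadenylation hexamer (AATAAA or ATTAAA) after the hairpin. Of those not tested, 12 had the hairpin and 5 ran on that far. The 23 members without annotated bases could not be searched. Only 14 of those not tested had 50 or more annotated bases after the stop codon, against 17 of the tested ones. The plot of annotated bases after the stop codon shows the same split, which is a description only, since a longer annotated exon also collects more reads.

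**Figure D1:**
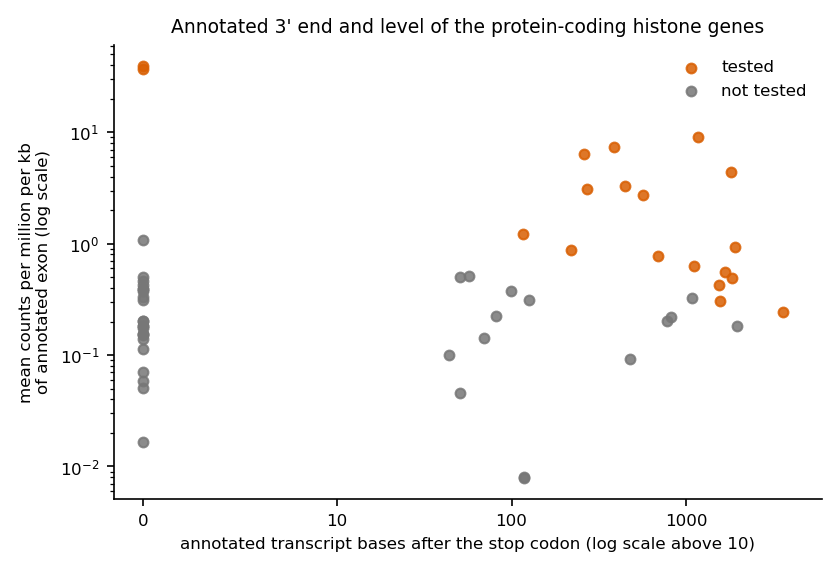
Longest annotated transcript stretch after the stop codon (bases, horizontal, log scale above 10) and mean level (CPM, counts relative to the library total, per kb of annotated exon, vertical, log scale) of the protein-coding histone genes, with 1 point per gene. The 19 tested genes lie mostly at long stretches, apart from HIST1H1C and HIST1H2BK at 0 bases, while 23 of the 38 genes not tested have 0 bases.

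Library totals ran from 12846676 to 18305820 counts. The line's own markers VIM and CD44 lay at 1543 to 1975 and at 1280 to 1462 CPM (with library totals scaled by TMM factors) over the 12 libraries. NES, another marker of such lines, stood at 10.6 to 16.5 CPM. Among markers of other cell types, CD3E, CDH5, KRT18 and MBP stayed at or below 0.484 CPM, and PTPRC, PECAM1, EPCAM, SYT1 and GFAP reached 1.98, 5.08, 1.699, 4.23 and 4.89 CPM at most. SNAP25, a neuronal gene, stood at 60.8 to 86.7 CPM.

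All 63 members together took 0.0104% to 0.0132% of the counts of a library. In PNA-10b libraries they summed to 105, 104 and 113 CPM of unscaled library totals, in PNA-21 libraries to 113, 115 and 122, in PNA-10b+21 libraries to 110, 118 and 121, and in control libraries to 132, 125 and 122. The PNA-10b and PNA-10b+21 libraries all lay below the control libraries, while the highest PNA-21 library reached the lowest control one. The means were 107 ± 5.32 in PNA-10b, 117 ± 4.78 in PNA-21, 116 ± 5.90 in PNA-10b+21 and 126 ± 5.33 in control libraries (SD, n = 3 each). With TMM-scaled totals the PNA-21 libraries summed to 112, 115 and 118 CPM, below the 136, 125 and 126 of control libraries. The PNA-10b and PNA-10b+21 libraries lay below control on that scale too. In bulk RNA, fewer cells that make histone mRNA and less histone mRNA per cell cannot be told apart. The tested members held 93.8% to 95.8% of the members' counts, and the 5 most abundant ones 57.9% to 63.9%.

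By family, H2B gave the largest summed level and H3 the smallest. Over PNA-10b, PNA-21 and PNA-10b+21 libraries the 21 H2B members summed to 46.0 to 56.6 CPM of unscaled library totals, against 57.9 to 61.3 in control libraries. The 13 H2A members summed to 17.5 to 22.7 in treated libraries and to 22.7 to 24.6 in control libraries, where the highest PNA-21 library (22.725) all but met the lowest control one (22.730). The plot of summed levels shows the gap in H2B and the near contact in H2A. The 12 H4 members overlapped, with 10.2 to 15.2 CPM in treated libraries and 11.9 to 14.02 in control libraries. The 11 H3 members overlapped too, at 3.36 to 5.30 in treated and 4.67 to 5.41 in control libraries. The 6 H1 members, of which HIST1H1C alone was tested, lay at 21.6 to 23.2 CPM (PNA-10b), 23.7 to 25.9 CPM (PNA-21) and 23.7 to 27.6 CPM (PNA-10b+21), against 23.5 to 27.6 CPM in control libraries. The H1 sums of PNA-21 and PNA-10b+21 libraries overlapped with control.

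**Figure D2:**
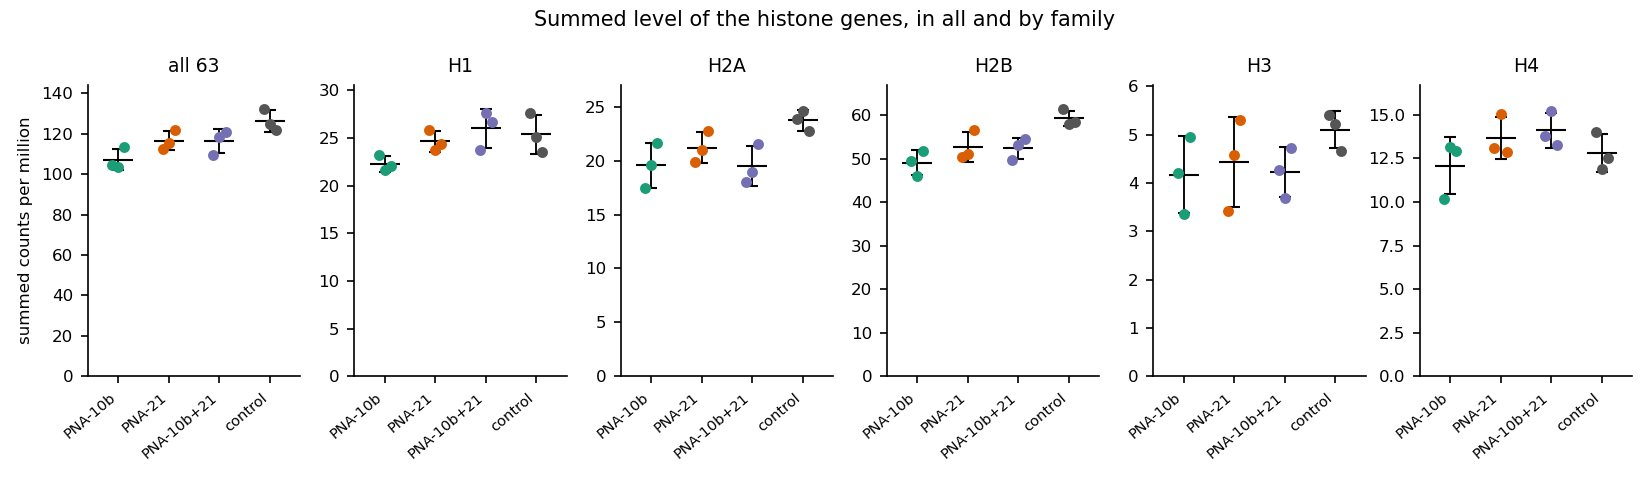
Summed CPM (unscaled library totals) of all 63 histone genes and of each family, by library (points), with the mean and SD of 3 libraries (bar and whiskers) and the treated groups left of control. The H2B sums of all 9 treated libraries lie below the 57.9 to 61.3 of the control libraries, while the H4 sums overlap.

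The most abundant member was HIST1H1C (H1-2), which encodes the linker histone H1.2, with a mean of 23.6 CPM. Per kb of annotated exon, HIST1H2BK and HIST1H1C stood highest, at 39.3 and 36.8 CPM per kb, and HIST1H2AC, HIST1H2BD and HIST1H4I followed at 9.06, 7.35 and 6.33. HIST1H2BK and HIST1H1C are annotated over their coding bases alone, 381 and 642. Their values per kb are therefore not strictly comparable with those of genes annotated with their untranslated ends. HIST2H2BE stood at 4.39, HIST3H2A at 3.30, HIST1H2BC at 3.12 and HIST1H2BJ at 2.75 CPM per kb, and the other tested members at 0.241 to 2.06.

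The first question was which histone genes changed after each treatment. All calls were downward, in 5 genes: HIST1H2AC, HIST1H2BD, HIST1H4H, HIST2H2BC and HIST1H2BC. HIST1H2AC, HIST1H2BD and HIST1H4H fell in each of the 3 treatments, by 0.36 to 1.05 on the log2 scale. Calls rest on edgeR's quasi-likelihood test, with p-values adjusted by the Benjamini-Hochberg method across the 15715 genes tested and a threshold of 0.05. All 3 comparisons use the same 3 control libraries, so their values stand side by side and are not independent. The share of all genes called lower in all 3 treatments is not given here.

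In PNA-10b cells 3 of 22 members were called lower and 0 higher, against 3.74% of all genes called lower and 6.48% called either way. In PNA-21 cells 5 of 22 were lower and 0 higher, against 14.6% of all genes called lower and 29.8% either way. In PNA-10b+21 cells 4 of 22 were lower and 0 higher, against 13.4% of all genes called lower and 27% either way. As a share, 13.6%, 22.7% and 18.2% of the members were called in PNA-10b, PNA-21 and PNA-10b+21 cells, so the shares in PNA-21 and PNA-10b+21 cells were no larger than those of all genes called either way. Among the 7500 genes in the members' range of levels, 2.53%, 12.4% and 11.3% were called lower and 4%, 20.4% and 18.5% either way. The median log2 fold change of the members was −0.25, −0.19 and −0.27, beside −0.00, −0.01 and −0.00 over all genes tested, and 18, 16 and 16 of the 22 were below 0.

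Members whose libraries did not overlap with control were mostly lower as well. In PNA-10b cells 9 members lay below control in every library and 0 above, where 12.8% of all genes lay below and 11% above. In PNA-21 cells 7 lay below and 0 above, where 20.9% and 21.5% of all genes did. In PNA-10b+21 cells 8 lay below and 2 above, where 19.9% and 20.3% did. The 2 above control were HIST3H2A and HIST1H2BH, neither of which passed the test.

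**Figure D3:**
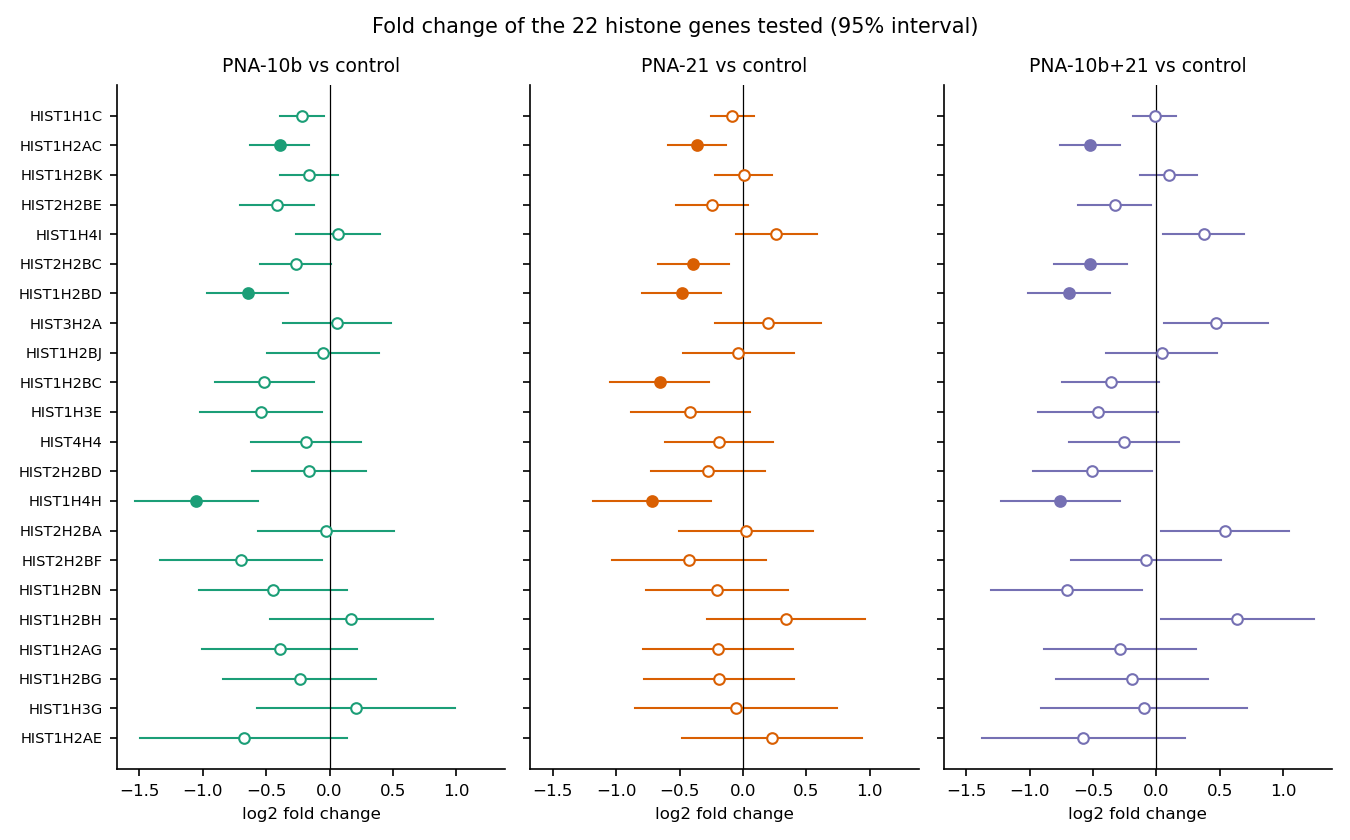
Log2 fold change against control (horizontal) of the 22 tested histone genes, in order of mean CPM with the highest on top, for each treatment, with the 95% interval of the edgeR fit over 3 libraries per group. Filled points are called at adjusted p under 0.05, and every filled point lies below 0.

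HIST1H2AC (H2AC6, chr6:26124145-26139116, plus strand) encodes an H2A protein and was the most abundant of the 5 called genes. It stood at 12.03, 13.8 and 16.7 CPM in PNA-10b libraries, at 14.05, 14.2 and 15.3 in PNA-21 libraries and at 11.2, 12.5 and 15.4 in PNA-10b+21 libraries, against 19.2, 18.6 and 18.2 in control libraries. Every treated library lay below every control library. The log2 fold change was −0.39 ± 0.11 in PNA-10b cells (SE, edgeR adjusted p = 0.0381), −0.36 ± 0.11 in PNA-21 cells (0.0170) and −0.52 ± 0.11 in PNA-10b+21 cells (0.00162). The PNA-10b call was lost when any 1 of the 3 control libraries or PNA-10b library 1 or 2 was left out, with adjusted p of 0.0675 to 0.166, and the PNA-21 call was lost without PNA-21 library 1 or 2 or without control library 1 (0.0516 to 0.0623).

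HIST1H2BD (H2BC5, chr6:26158146-26171349, plus strand) encodes an H2B protein. Its levels were 5.65, 5.42 and 5.44 CPM in PNA-10b libraries, 6.73, 4.92 and 6.71 in PNA-21 libraries and 3.95, 6.66 and 5.59 in PNA-10b+21 libraries, against 8.18, 9.13 and 8.47 in control libraries. All 9 treated libraries were lower than the 3 control libraries, and the PNA-10b libraries were the closest together. The log2 fold changes against control were −0.65 ± 0.15 (PNA-10b, edgeR adjusted p = 0.0138), −0.48 ± 0.15 (PNA-21, 0.0187) and −0.69 ± 0.15 (PNA-10b+21, 0.00212). The PNA-21 call was lost without control library 2 (0.0652) or PNA-21 library 2 (0.0995), while the PNA-10b+21 call was kept under all 18 other settings.

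HIST1H4H (H4C8, chr6:26277609-26285638, minus strand) is 1 of the genes that all encode the same H4 protein, and it had the lowest mean of the 5, at 1.66 CPM. In PNA-10b libraries it had 17, 20 and 19 counts (1.23, 1.18 and 1.19 CPM), in PNA-21 libraries 26, 26 and 24 (1.53, 1.78 and 1.27 CPM), in PNA-10b+21 libraries 29, 16 and 25 (1.66, 1.13 and 1.57 CPM) and in control libraries 36, 49 and 26 (2.41, 2.89 and 2.098 CPM). The groups did not overlap with control in CPM, although control library 3 lay near the treated ones. The log2 fold change was −1.05 ± 0.23 in PNA-10b cells (edgeR adjusted p = 0.00891), −0.72 ± 0.22 in PNA-21 cells (0.0186) and −0.76 ± 0.23 in PNA-10b+21 cells (0.0155). DESeq2 gave adjusted p of 0.1002 in PNA-21 and 0.0801 in PNA-10b+21 cells, and leaving out control library 2 gave edgeR adjusted p of 0.0964 and 0.0850 there. The PNA-21 call was also lost without PNA-21 library 3 (0.0835), and the PNA-10b+21 call without PNA-10b+21 library 2 (0.0760).

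HIST2H2BC (H2BC20P, chr1:149844498-149850937, minus strand) is the called member annotated as a transcribed pseudogene. It stood at 7.54, 6.48 and 8.56 CPM in PNA-10b, 5.90, 6.28 and 8.34 in PNA-21 and 5.67, 6.51 and 6.78 in PNA-10b+21 libraries, against 8.78, 9.37 and 8.96 in control libraries. All treated libraries lay below control, the PNA-10b and PNA-21 ones by a small gap at their highest. It fell in PNA-21 cells (−0.39 ± 0.13, edgeR adjusted p = 0.0321) and in PNA-10b+21 cells (−0.52 ± 0.14, 0.00743), and PNA-10b cells gave −0.27 ± 0.13 (0.269). The PNA-21 call was lost with DESeq2 (0.0820) and without any 1 control library or PNA-21 library 1 or 2 (edgeR adjusted p of 0.0577 to 0.157), and the PNA-10b+21 call without PNA-10b+21 library 1 (0.0536). Its exons overlap those of HIST2H2BD on the opposite strand, and 39.8% of the 50-base words of its transcripts occur in transcripts of other genes, so its counts are uncertain.

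HIST1H2BC (H2BC4, chr6:26114873-26123926, minus strand) encodes an H2B protein and was called in PNA-21 cells. It stood at 1.96, 2.53 and 2.50 CPM in PNA-10b libraries, 2.07, 1.71 and 2.53 in PNA-21 libraries and 2.64, 2.69 and 2.51 in PNA-10b+21 libraries, against 3.35, 3.12 and 3.63 in control libraries. Every treated library was below control, also in the groups where the test did not call it. The log2 fold change was −0.66 ± 0.19 in PNA-21 cells (edgeR adjusted p = 0.0115), beside −0.52 ± 0.19 in PNA-10b cells (0.109) and −0.36 ± 0.18 in PNA-10b+21 cells (0.158). DESeq2 gave 0.0553 for the PNA-21 value, and edgeR without PNA-21 library 2 gave 0.0577.

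**Figure D4:**
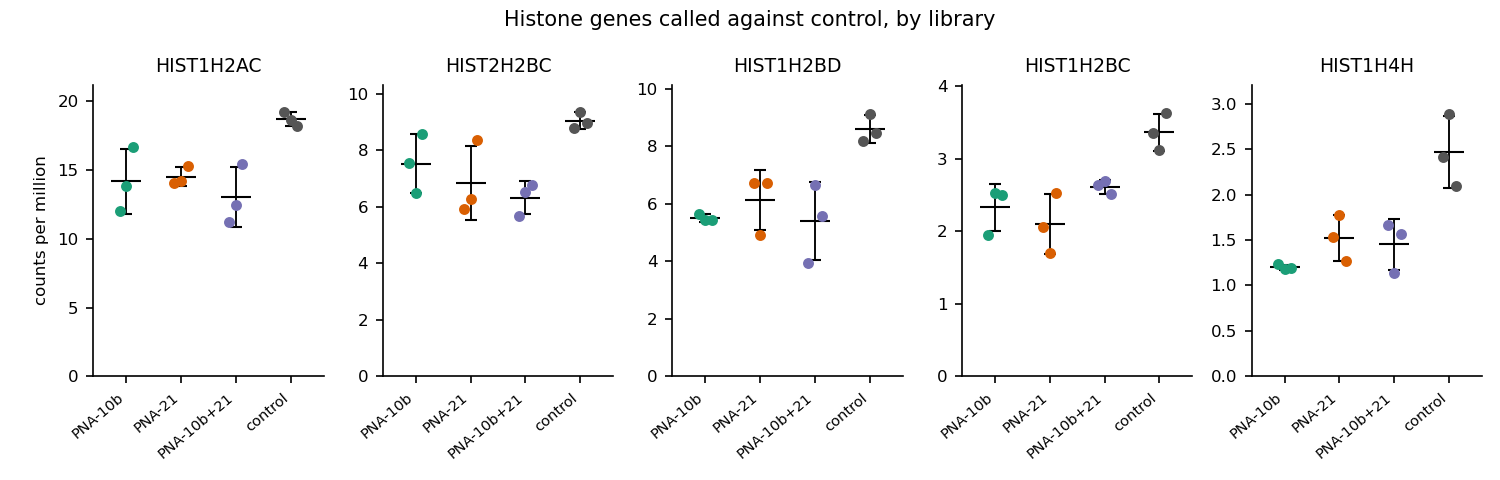
CPM (TMM-scaled library totals) of the 5 histone genes called against control, by library (points), with the mean and SD of 3 libraries (bar and whiskers) and the treated groups left of control. In each gene all 9 treated points lie below the 3 control points, and the genes are shown because they were called lower.

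The PNA-10b calls did not hold without PNA-10b library 2, where 0 of 22 members were called, with edgeR log2 fold changes of −0.64 for HIST1H2BD, −1.04 for HIST1H4H and −0.37 for HIST1H2AC at adjusted p of 0.0743, 0.0565 and 0.166. Over all genes 306 were called there, against 1019 with all libraries. In PNA-21 cells the count was 1 without PNA-21 library 2, 2 without control library 2, and 3 without PNA-21 library 1 or control library 1. Over all genes 3685, 4342, 3727 and 3862 were called there, in that order, against 4684 with all libraries. In PNA-10b+21 cells the count of members was 7 without PNA-10b+21 library 3, with HIST1H2BN lower and HIST1H4I and HIST2H2BA higher among the calls. Over all genes 4164 were called there, against 4243 with all libraries.

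The other abundant members did not pass the test in any treatment. HIST1H1C stood at 22.7, 20.7 and 20.9 CPM in PNA-10b, 24.8, 22.9 and 22.8 in PNA-21 and 22.3, 26.3 and 25.6 in PNA-10b+21 libraries, against 27.4, 23.9 and 23.4 in control libraries. The PNA-10b libraries lay below control (−0.22 ± 0.08, edgeR adjusted p = 0.126), and the other groups overlapped with it, at −0.08 ± 0.08 (0.476) and −0.01 ± 0.08 (0.920). In PNA-10b+21 cells the 95% interval for HIST1H1C ran from −0.18 to 0.15.

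HIST1H2BK (H2BC12), an H2B gene, stood at 14.6, 12.7 and 13.2 CPM in PNA-10b, 16.2, 15.8 and 13.5 in PNA-21 and 13.3, 17.0 and 18.1 in PNA-10b+21 libraries, against 15.5, 14.3 and 15.4 in control libraries. The groups overlapped, and the log2 fold changes were −0.16, 0.00 and 0.10, each with SE 0.11. Of its 50-base words 74.1% occur in transcripts of other genes, so reads may have been split or dropped in counting.

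HIST2H2BE (H2BC21), an H2B gene on chromosome 1, stood at 10.1, 6.72 and 8.94 CPM in PNA-10b, 8.20, 9.63 and 10.8 in PNA-21 and 9.57, 8.57 and 8.92 in PNA-10b+21 libraries, against 12.9, 9.84 and 11.4 in control libraries. Only the PNA-10b+21 libraries lay wholly below control. The log2 fold change was −0.41 ± 0.14 (edgeR adjusted p = 0.0813), −0.25 ± 0.14 (0.186) and −0.33 ± 0.14 (0.0830) in PNA-10b, PNA-21 and PNA-10b+21 cells.

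HIST1H4I (H4C9) encodes the same protein as HIST1H4H but had positive values. It stood at 5.72, 8.60 and 8.12 CPM in PNA-10b, 8.56, 9.77 and 7.76 in PNA-21 and 9.28, 10.7 and 8.10 in PNA-10b+21 libraries, against 8.58, 6.01 and 7.10 in control libraries. All groups overlapped with control, at 0.07 ± 0.16, 0.26 ± 0.15 and 0.37 ± 0.15, with edgeR adjusted p of 0.870, 0.215 and 0.0792. The 95% intervals of HIST1H4I and HIST1H4H did not overlap in any of the 3 comparisons, reaching −0.26, −0.06 and 0.05 at their lower end in HIST1H4I and −0.56, −0.25 and −0.29 at their upper end in HIST1H4H. The difference between the 2 genes was not tested.

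Among the remaining H2A genes, HIST3H2A gave 0.06, 0.20 and 0.47 in PNA-10b, PNA-21 and PNA-10b+21 cells, HIST1H2AG −0.39, −0.20 and −0.29, and HIST1H2AE −0.68, 0.23 and −0.58 on the log2 scale. HIST3H2A stood at 3.32, 3.47 and 3.96 CPM in PNA-10b+21 libraries, all above the 2.41, 3.01 and 2.26 CPM of control libraries, with edgeR adjusted p = 0.0822. HIST1H2AE had 4 to 20 counts per library, and its standard errors were 0.34 to 0.39. Its 95% interval in PNA-10b cells ran from −1.49 to 0.14.

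Among the remaining H2B genes, HIST1H2BN gave −0.45, −0.20 and −0.71, and HIST2H2BF −0.70, −0.43 and −0.08. HIST1H2BH gave 0.17, 0.34 and 0.64, and HIST1H2BJ −0.05, −0.04 and 0.04. HIST1H2BG gave −0.24, −0.19 and −0.19, and the pseudogenes HIST2H2BD and HIST2H2BA −0.16, −0.28 and −0.50, and −0.03, 0.02 and 0.54. None of these values passed the test. Exons of HIST2H2BF and HIST1H2BN overlap those of FCGR1A and HIST1H2AK on the opposite strand. HIST2H2BA and HIST2H2BD share 73.6% and 71.0% of their 50-base words with other genes, and HIST2H2BF 26.9%.

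The H3 genes and the solitary H4 gene had few reads. HIST1H3E gave −0.54, −0.42 and −0.46 at 27 to 59 counts per library, and HIST1H3G 0.21, −0.06 and −0.10 at 7 to 18 counts. HIST4H4, alone on chromosome 12, gave −0.18, −0.19 and −0.26 and stood at 2.01, 2.19 and 2.38 CPM in PNA-21 libraries, below the 2.48, 2.53 and 2.50 CPM of control libraries. None of these values passed the test.

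Features of gene structure were looked at after the calls were known, with a cutoff of 5 kb that was not set beforehand. Whether they go with the calls was not tested. All 5 called genes span more than 5 kb in GENCODE release 29, and 4 of the 5 have an annotated transcript of more than 1 exon. The pseudogene HIST2H2BC, at 6440 bases, has none. Of the 17 tested members that were not called, 4 span more than 5 kb and 6 have such a transcript, and of the 41 not tested, 1 and 2. HIST1H2BD and HIST1H2BC each have 1 annotated form that keeps the stem-loop and 1 that is spliced after the stop codon. These spliced forms end 12799 and 8651 bases of genome past the stop codon, without the stem-loop and with a polyadenylation hexamer. HIST1H2AC has a form that keeps the stem-loop and runs on for 1114 bases in a transcript that ends 14477 bases of genome past the stop codon. HIST1H4H has a form that ends 18 bases after the stem-loop and a spliced one that goes on for 630 bases after it. Counts per gene do not say which form the reads came from, and HIST2H2BF and HIST1H2BN, at spans of 29685 and 28039 bases, were not called.

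HIST1H2AC and HIST1H2BC form a divergent pair, with 219 bases between their annotated starts. Their promoter windows of 300 bases around the RefSeq start overlap by 255 bases. The shared window and that of HIST1H4H are shown because the pair was lower in every treated library and HIST1H4H fell in all 3 treatments. In RefSeq's GRCh38.p14 the first lies at chr6:26123922-26124221 on the plus strand and the second at chr6:26285485-26285784 on the minus strand. Capitals mark CCAAT and TATAAA on either strand (ATTGG and TTTATA on the other strand).

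HIST1H2AC promoter: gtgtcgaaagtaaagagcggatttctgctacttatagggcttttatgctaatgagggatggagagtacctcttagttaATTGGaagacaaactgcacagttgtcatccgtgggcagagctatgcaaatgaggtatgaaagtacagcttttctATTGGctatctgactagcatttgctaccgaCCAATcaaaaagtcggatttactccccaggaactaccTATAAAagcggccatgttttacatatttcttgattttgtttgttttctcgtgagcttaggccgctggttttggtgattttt

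HIST1H4H promoter: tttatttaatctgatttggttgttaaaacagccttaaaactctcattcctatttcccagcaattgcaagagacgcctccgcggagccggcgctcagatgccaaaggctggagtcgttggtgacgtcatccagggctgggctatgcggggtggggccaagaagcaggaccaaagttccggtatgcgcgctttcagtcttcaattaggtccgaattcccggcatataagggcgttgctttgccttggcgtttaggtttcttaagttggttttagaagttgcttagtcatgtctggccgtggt

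The HIST1H2AC window holds CCAAT 3 times and TATAAA once, and the HIST1H4H window holds neither. Of 50 members with a promoter in the table, 42 (84.0%) hold CCAAT and 35 (70.0%) hold TATAAA, beside 34.6% and 11.5% of 35116 promoters in all. CCAAT was found in 89.5% of tested and 80.6% of untested members, and TATAAA in 57.9% of tested and 77.4% of untested members, differences that were not tested. A match is a run of letters and does not show that a factor bound there.

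The mature miR-21-5p, the target of sgPNA-21, is shown with its seed (bases 2 to 8) in capitals, as given by RefSeq at chr17:59841273-59841294 on the plus strand of GRCh38.p14.

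hsa-miR-21-5p: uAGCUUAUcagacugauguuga

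The 7-base match to this seed, ATAAGCT, occurs after the stop codon of 2 tested members, HIST2H2BF and HIST1H2BN, and of 1 that was not tested, HIST1H4E. Neither tested gene was called, with log2 fold changes of −0.43 ± 0.29 and −0.20 ± 0.27 in PNA-21 cells. None of the 4 called protein-coding members has the match after the stop codon, the only stretch searched. HIST1H1C, HIST1H2BK and 23 members not tested have no annotated base there and could not be searched, and pseudogenes were left out.

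The treatments were also compared with each other. In PNA-21 against PNA-10b cells 0 of 22 members were called, beside 6.79% of all genes, of which 2.91% were called higher and 3.88% lower. The comparison of PNA-10b+21 with PNA-10b cells also gave 0 members, beside 9.7% of all genes, with 4.61% called higher and 5.1% lower. In PNA-10b+21 against PNA-21 cells 0 members were called and 0% of all genes. At an unadjusted edgeR p under 0.05 there were 1, 4 and 2 members in these comparisons, and the shares of all genes at that p are not given here. DESeq2 called 0 members in the first and second comparisons and gave no adjusted p for any member in the third. Median log2 differences of the members were 0.13, 0.10 and −0.04. The largest difference was that of HIST1H2AE, with 0.708, 0.751 and 1.06 CPM in PNA-21 libraries against 0.362, 0.530 and 0.437 CPM in PNA-10b libraries (0.91 ± 0.37, edgeR adjusted p = 0.149). For the 5 genes called against control, the 95% interval of PNA-21 minus PNA-10b ran from −0.21 to 0.27 for HIST1H2AC, from −0.16 to 0.49 for HIST1H2BD and from −0.18 to 0.85 for HIST1H4H. It ran from −0.41 to 0.16 for HIST2H2BC and from −0.55 to 0.27 for HIST1H2BC.

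Departure from additive effects was the log2 difference of PNA-10b+21 from PNA-21 minus that of PNA-10b from control. No member was called in it by edgeR (0 of 22, against 3.12% of all genes). At an unadjusted edgeR p under 0.05, for which no share of all genes is given, there were 4 members. These were HIST1H4H (1.01 ± 0.34, adjusted p = 0.0997), HIST1H2BC (0.81 ± 0.27, 0.0983), HIST2H2BF (1.04 ± 0.42, 0.178) and HIST1H1C (0.29 ± 0.12, 0.173), which were singled out after their values were seen.

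Genes of related function were counted in the same fits. Of 30 S phase genes, 10 rose and 0 fell in PNA-10b cells, 27 rose and 0 fell in PNA-21 cells, and 29 rose and 0 fell in PNA-10b+21 cells, where 2.75%, 15.2% and 13.6% of all genes were called higher. The S phase list had medians of 0.20, 0.30 and 0.36 on the log2 scale, beside −0.25, −0.19 and −0.27 for the clustered histone genes. RRM2, a subunit of ribonucleotide reductase, stood at 287, 305 and 276 CPM in PNA-10b, 343, 353 and 318 in PNA-21 and 350, 334 and 310 in PNA-10b+21 libraries, against 232, 243 and 228 in control libraries. All 9 treated libraries were above control for RRM2, the reverse of HIST1H2AC and HIST1H2BD. Without PNA-10b library 2 the PNA-10b count was 1 of 30, without control library 3 it was 2 and without control library 1 it was 3. In PNA-21 and PNA-10b+21 cells it stayed at 19 or more and 25 or more without any 1 library.

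**Figure D5:**
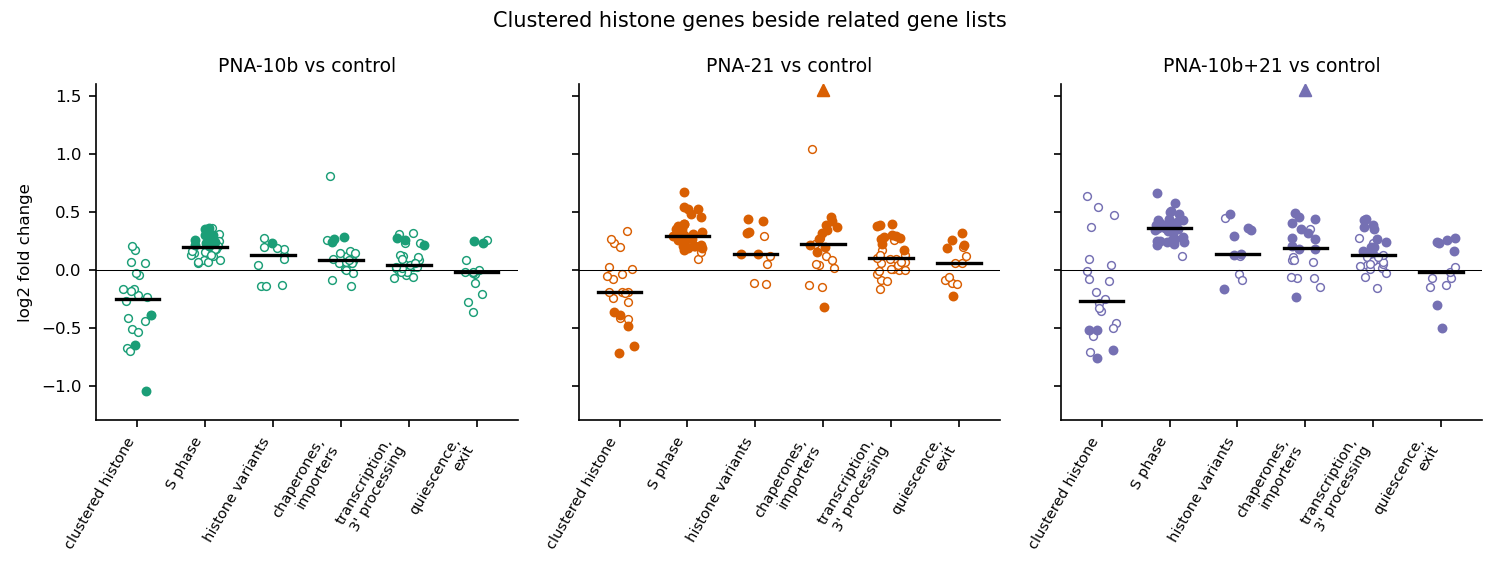
Log2 fold change against control (vertical) of the 22 tested clustered histone genes and of 5 related lists, with 1 point per gene, filled where called, and the median as a bar. The histone medians lie at −0.25, −0.19 and −0.27 and the S phase medians at 0.20, 0.30 and 0.36, and the triangles stand for NAP1L4, which lies beyond the axis limit of 1.6.

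Factors of histone gene transcription and mRNA 3′ processing, listed together with factors of mRNA decay and translation, were tested in 30 cases. The counts mix these roles, and 4 of the factors (SLBP, CDK2, CCNE1 and CCNE2) are also S phase genes. In PNA-10b cells 3 rose and 0 fell, in PNA-21 cells 10 rose and 0 fell, and in PNA-10b+21 cells 11 rose and 0 fell, with medians of 0.04, 0.10 and 0.12. Over all genes 2.75%, 15.2% and 13.6% were called higher and 3.74%, 14.6% and 13.4% lower. SLBP, which binds the stem-loop, stood at 71.2, 79.4 and 74.0 CPM in PNA-10b, 79.6, 83.8 and 74.7 in PNA-21 and 78.2, 75.3 and 76.0 in PNA-10b+21 libraries, against 63.9, 68.5 and 61.4 in control libraries. It was higher in every treated library and rose by 0.21 ± 0.06, 0.29 ± 0.06 and 0.24 ± 0.06 on the log2 scale (edgeR adjusted p = 0.0340, 0.000815 and 0.00420). ERI1, an exonuclease that acts at the histone stem-loop, rose by 0.27 ± 0.07, 0.39 ± 0.06 and 0.35 ± 0.07. CDK2, the kinase that acts on NPAT, rose by 0.26 ± 0.07, 0.38 ± 0.07 and 0.39 ± 0.07. NPAT itself gave 0.04, 0.13 and 0.06 and was not called in any treatment. Without PNA-10b library 2, control library 1 or control library 3 the PNA-10b count was 0, without PNA-10b library 3 it was 1, and without PNA-10b+21 library 1 the PNA-10b+21 count was 7. The PNA-21 count was 7 without control library 3 or PNA-21 library 1. In PNA-10b+21 cells 1 factor fell without control library 1 or PNA-10b+21 library 3, and with a replicate block in the fit.

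Histone genes listed as replication-independent variants, which mostly come from polyadenylated mRNAs, were counted beside the clustered genes. Of 11 tested, 1 rose in PNA-10b cells, 6 rose in PNA-21 cells, and 6 rose and 1 fell in PNA-10b+21 cells. The shares of all genes called higher there were 2.75%, 15.2% and 13.6%, and those called lower 3.74%, 14.6% and 13.4%. H2AFZ, which encodes H2A.Z, stood at 197, 213 and 207 CPM in PNA-10b, 226, 255 and 236 in PNA-21 and 231, 224 and 214 in PNA-10b+21 libraries, against 186, 182 and 159 in control libraries. It rose by 0.23 ± 0.06, 0.44 ± 0.06 and 0.34 ± 0.06 on the log2 scale (edgeR adjusted p = 0.0271, 1.76e-05 and 0.000254). H2AFX, which encodes H2A.X, rose by 0.32 ± 0.08 in PNA-21 and 0.48 ± 0.08 in PNA-10b+21 cells, with 0.18 ± 0.08 in PNA-10b cells (0.187). CENPA, the centromeric H3 variant, rose by 0.42 ± 0.08 and 0.36 ± 0.08 in PNA-21 and PNA-10b+21 cells. The gene that fell was H1F0, the linker variant H1.0 of cells that are not dividing, at −0.17 ± 0.06 in PNA-10b+21 cells (edgeR adjusted p = 0.0372), a call lost with DESeq2, with no filter on low counts, in the fit of 2 groups alone, and without control library 1 or 3 or PNA-10b+21 library 1 or 2. Without 1 library, the counts of variants that rose ran from 0 to 3 in PNA-10b cells (0 without PNA-10b library 2 or 3 or control library 3, and 3 without control library 2) and from 3 to 6 in PNA-21 and PNA-10b+21 cells (3 without control library 3 in both, and 3 without PNA-10b+21 library 1 in PNA-10b+21 cells).

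Histone chaperones and importers, which carry new histones to chromatin, were tested in 22 cases. In PNA-10b cells 3 rose and 0 fell, in PNA-21 cells 11 rose and 1 fell, and in PNA-10b+21 cells 12 rose and 1 fell. Over all genes 2.75%, 15.2% and 13.6% were called higher and 3.74%, 14.6% and 13.4% lower. ASF1B, an H3 and H4 chaperone, stood at 57.1, 62.8 and 55.2 CPM in PNA-10b, 68.8, 68.7 and 63.4 in PNA-21 and 74.0, 68.0 and 62.3 in PNA-10b+21 libraries, against 47.8, 51.5 and 46.3 in control libraries. It was above control in every treated library, by 0.26 ± 0.07, 0.46 ± 0.07 and 0.49 ± 0.07 on the log2 scale. HJURP, the chaperone of CENPA, rose by 0.29 ± 0.07, 0.42 ± 0.07 and 0.45 ± 0.07, and UBN1, a subunit of the HIRA complex, fell in PNA-21 cells (−0.32 ± 0.06) and in PNA-10b+21 cells (−0.23 ± 0.06). NAP1L4 counts among those that rose in PNA-21 and PNA-10b+21 cells, but its libraries were uneven, with 22.02, 17.6 and 1.21 CPM in PNA-21, 4.99, 37.2 and 0.440 in PNA-10b+21 and 0.402, 0.530 and 2.42 in control libraries. Without PNA-10b library 2, control library 1 or control library 3 the PNA-10b count was 0.

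Of 13 tested genes of quiescence and cell cycle exit, 2 rose in PNA-10b cells, where 2.75% of all genes were called higher. In PNA-21 cells 4 rose and 1 fell, where 15.2% of all genes were called higher and 14.6% lower, and in PNA-10b+21 cells 5 rose and 2 fell, where 13.6% and 13.4% were. The medians were −0.02, 0.06 and −0.02. The list also holds CCND1 and CCND2, cyclins of G1 phase, so its counts do not stand for cell cycle exit alone. CCND1, a cyclin of G1 phase, rose by 0.25 ± 0.06, 0.25 ± 0.06 and 0.24 ± 0.06, and CCNG2, a cyclin linked to cell cycle arrest, fell in PNA-21 cells (−0.22 ± 0.08) and PNA-10b+21 cells (−0.50 ± 0.09), the PNA-21 call being lost with DESeq2 and without several single libraries. Without PNA-10b library 2, control library 1 or control library 3 the PNA-10b count was 0, and without control library 3 or PNA-10b+21 library 3 the PNA-10b+21 count of genes that rose was 3.

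Small RNAs without poly(A) tails were counted beside them, since their RNAs are poorly captured as well. The 202 genes of this kind summed to 34.5 to 48.3 CPM of unscaled library totals over the treated libraries, against 32.8 to 44.7 in control libraries. These ranges overlapped. Of the 26 that were tested, 0 were called in PNA-10b and PNA-21 cells by edgeR, where 6.48% and 29.8% of all genes were. In PNA-10b+21 cells 2, SNORA73B and SNORD101, rose, where 13.6% of all genes were called higher and DESeq2 called 0 of the 26. The PNA-10b+21 count was 0 without control library 1 or PNA-10b+21 library 1, and 1 without control library 2 or 3 or PNA-10b+21 library 2. The part that capture of tail-less RNA has in the histone values was not tested.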

How the data were processed

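The authors deposited raw read counts per Ensembl gene for 12 libraries, with no normalization. Per the submitters' processing notes, HISAT2 2.1.0, SAMtools 1.7 and HTSeq 0.11.0 were used with hg38. Per the labels' protocols total RNA was taken with the mirVana kit and sequenced from TruSeq stranded mRNA libraries. Neither the strand setting of HTSeq nor its annotation release is given in those notes or labels, so overlapping and antisense genes are less certain, and near-identical histone genes may share or lose reads.

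From these counts, filterByExpr of edgeR 4.0.16 (minimum count 10, R 4.3.3) kept 15715 genes with 99.8% of all counts. TMM factors and 1 quasi-likelihood model of all 12 libraries, with a coefficient for each group, gave log2 fold changes, with SE as the fold change divided by the root of F, and p-values adjusted by Benjamini-Hochberg over all genes. The common biological coefficient of variation was 0.0518. Levels of single genes are CPM with TMM-scaled library totals, and sums over members are CPM of unscaled totals. Alternatives were RLE size factors, no filter, a filter of 10 counts in 3 libraries, DESeq2 1.42.0, fits of 2 groups, a replicate block and leaving out each library. The fits were checked on simulated counts.

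Positions come from GENCODE release 29, which matched 61 of 63 members, and promoters and miR-21-5p from RefSeq tables of GRCh38.p14, where 50 members matched. No genome sequence was used, so stem-loops were sought in transcripts. All tested members are named, with values per library for those called and the 5 most abundant; from the other lists up to 4 genes with the smallest p per comparison are named, together with NPAT, H1F0 and NAP1L4, chosen after their values were seen. Some cell type markers are not reported here. The members and lists were chosen with earlier results of these data known. Replicates differed by more than sampling noise, at a chi-square of 2.65 to 5.29 per degree of freedom.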

Additional observations from a re-analysis of the deposited data

How the results depend on the processing

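Of the 12 calls of single members against control, each tried under 18 other settings, 189 of 216 values kept their call, 27 lost it with the same direction, and no value of a tested member that was called changed sign. Calls made in other settings alone came from HIST2H2BE, HIST1H3E, HIST2H2BA, HIST1H2BN and HIST1H4I, 13 times in all. DESeq2 called 3 members against control in PNA-10b cells, 2 in PNA-21 cells and 3 in PNA-10b+21 cells, where edgeR called 3, 5 and 4, and it gave an adjusted p to 14, 21 and 20 members and to none between PNA-10b+21 and PNA-21 cells. Leaving out each library in turn gave 0 to 3 calls for PNA-10b cells, 1 to 5 for PNA-21 cells and 3 to 7 for PNA-10b+21 cells, 0 to 1 between PNA-10b+21 and PNA-10b cells (1 without PNA-10b+21 replicate 1), and 0 in the other 2 comparisons of treatments. The cause was not tested. Without the filter the counts were 4, 5 and 5, with RLE size factors 3, 5 and 4, and with fits of 2 groups 3, 5 and 5. Replicate numbers did not pair the libraries (same-number correlations −0.06 to 0.11 with a median of 0.02), and the replicate block gave 3, 5, 4, 0, 0 and 0 calls. Without HIST1H1C and HIST1H2AC the mean summed level was 71.8 (PNA-10b), 78.2 (PNA-21), 78.2 (PNA-10b+21) and 83.7 (control) CPM. With TMM-scaled totals the sums were 108, 115, 115 and 129. Depth limits precision most for the rarest members, such as HIST1H2AE with 4 to 20 counts per library.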
